A study of Mus musculus with 5 samples.

Results

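The Reg genes encode small secreted proteins of the C-type lectin fold, and Nupr1 encodes a small nuclear protein that takes part in the stress response. Chosen by gene symbol in the platform annotation, the members were the 7 Reg genes Reg1, Reg2, Reg3a, Reg3b, Reg3d, Reg3g and Reg4, together with Nupr1. These 8 genes, each read by 1 probe set, were followed among the 19938 genes that could be named on the array. Whole pancreata were taken at postnatal day 1, and their RNA was read on 5 single-colour arrays (Mouse Gene 1.0 ST), each holding 1 sample. The Pdx1cKO group (n = 3) carried Elastase-Cre and floxed Pdx1 alleles (Pdx1 loxP), so that Pdx1, a transcription factor of the pancreatic lineage, was deleted where the Elastase promoter drives Cre, in exocrine cells, while endocrine cells keep the gene. The control group (n = 2) is labelled only as not recombined. Its exact alleles are not given, and the animals of both groups are described as litter mates. Each value is a normalised intensity on a linear scale, and each difference is Pdx1cKO minus control on the log2 scale.

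Reg proteins are released with the zymogens of the acinar cell, the enzyme-secreting cell of the exocrine pancreas, and several of them are also made by the gut epithelium. In the adult pancreas, Reg genes and Nupr1 are known as genes that are induced strongly during acute pancreatitis. Cytokines that act through STAT3, such as those of the IL-6 family and IL-22, are known to induce Reg3 genes, whereas Nupr1 is known as a target of ATF4, the transcription factor of the integrated stress response. Acinar genes in general are driven by the PTF1 complex, whose binding site joins an E-box to a half-site for RBPJ or RBPJL.

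The regions upstream of the start sites of the 4 members with the most negative log2 fold changes are shown first, since these genes carry the differences described here. Reg1 (chr6:78425733-78425982, plus strand), Reg3b (chr6:78370635-78370884, plus strand), Reg3d (chr6:78378866-78379115, minus strand) and Nupr1 (chr7:126625471-126625720, minus strand) are given as the 250 bases before the annotated start, 5′ to 3′, from RefSeq on GRCm38.p6. Capitals mark a match on either strand to CACCTG (the E-box of the PTF1 site), TTCCCA (its RBPJ half-site), TTCNNNGAA (a STAT site) or TGATGNAAN (the composite site of ATF4 and C/EBP factors).
Reg1: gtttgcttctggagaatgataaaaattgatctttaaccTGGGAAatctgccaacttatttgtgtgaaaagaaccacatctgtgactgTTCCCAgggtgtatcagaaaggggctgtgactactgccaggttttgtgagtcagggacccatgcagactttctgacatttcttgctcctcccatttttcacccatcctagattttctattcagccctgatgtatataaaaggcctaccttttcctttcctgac
Reg3b: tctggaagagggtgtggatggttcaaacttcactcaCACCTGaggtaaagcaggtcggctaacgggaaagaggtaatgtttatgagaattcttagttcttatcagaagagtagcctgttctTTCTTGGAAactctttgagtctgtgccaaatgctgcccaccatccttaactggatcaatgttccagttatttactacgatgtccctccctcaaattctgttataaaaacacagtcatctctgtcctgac
Reg3d: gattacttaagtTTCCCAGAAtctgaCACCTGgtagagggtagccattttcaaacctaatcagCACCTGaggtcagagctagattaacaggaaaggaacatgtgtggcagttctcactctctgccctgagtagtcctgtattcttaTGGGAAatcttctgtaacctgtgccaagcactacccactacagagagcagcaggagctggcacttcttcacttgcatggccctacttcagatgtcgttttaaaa
Nupr1: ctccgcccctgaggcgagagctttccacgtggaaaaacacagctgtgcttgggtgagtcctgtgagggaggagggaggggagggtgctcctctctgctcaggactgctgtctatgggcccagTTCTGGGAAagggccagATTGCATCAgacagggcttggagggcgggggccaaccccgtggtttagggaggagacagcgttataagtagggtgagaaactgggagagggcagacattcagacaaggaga

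All 8 members had a promoter in the RefSeq table, and matches were sought from 250 bases before to 50 bases after the start. The E-box letters occurred in 5 of the 8 windows (Reg2, Reg3a, Reg3b, Reg3d and Reg4), against 20.2% of all 32851 windows of the same length. TTCCCA occurred in 6 of 8, in all members but Reg3b and Reg4, against 25.6% of all windows. The STAT letters were found in Reg3b, Reg3d and Nupr1, 3 of 8 against 8.3%, and the ATF4 composite only in Nupr1, 1 of 8 against 3.95%. In Reg3d the STAT match TTCCCAGAA began 238 bases before the start and contained a TTCCCA match, and in Nupr1 the STAT match TTCTGGGAA contained the same letters on the other strand, so these pairs are not separate matches. The Reg windows are related by descent, and the counts are descriptions of letters, not of binding.

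**Figure D1:**
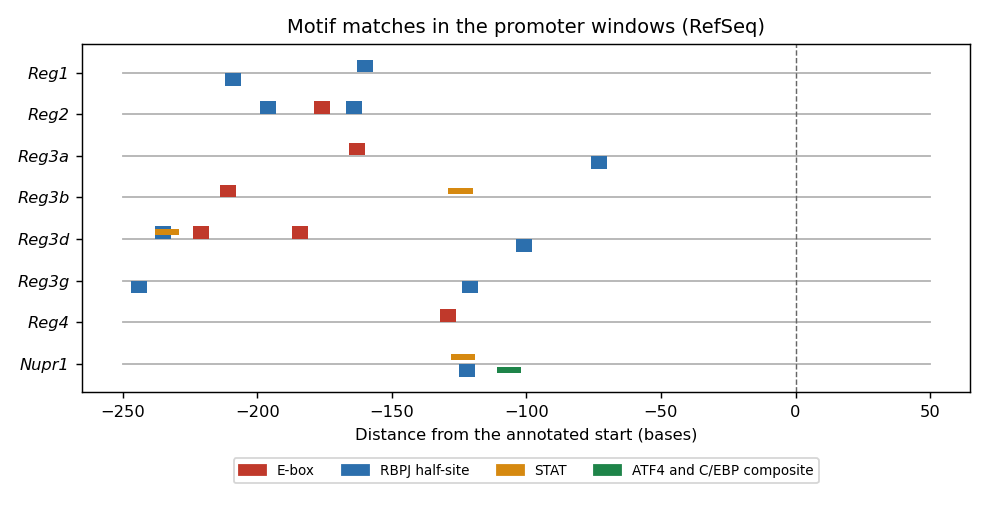
Position of each motif match (x axis, bases from the annotated start, dashed line at the start) in the promoter window of each member (rows), with matches on the forward strand drawn above the line and those on the reverse strand beneath it. The E-box letters were present in 5 rows, TTCCCA in 6, the STAT letters in 3 and the ATF4 composite only in Nupr1, with the STAT and ATF4 matches drawn as thinner bars.

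In the mouse genome (GRCm38.p6, by the RefSeq annotation) 6 of the 7 Reg genes lie in 1 cluster on chromosome 6, between positions 78370885 and 78468874. The cluster spans 97990 bases and holds 1 other annotated gene, the pseudogene Gm52853. Reg4 lies apart on chromosome 3 (98222138 to 98236748), and Nupr1 lies on chromosome 7 (126623246 to 126625470).

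The arrays also differed outside the members. What the transcripts of other tissues add to the member values was not tested. Liver transcripts summed to 32266, 40835 and 15051 in the Pdx1cKO arrays, against 5223 and 5456 in the controls, and granulocyte and erythroid lists were higher in all 3 Pdx1cKO arrays as well. Stomach transcripts summed to 1219, 1274 and 1097 in the Pdx1cKO arrays, against 707 in control 1 and 20650 in control 2, which stood apart. Of 8 listed islet hormones 7 were measured, and they summed to 4675, 4101 and 3509 in Pdx1cKO, against 7840 and 7545 in control. All 7 were below both controls in every Pdx1cKO array, where 11.7% of all genes were, with a median log2 fold change of -1.06. Xist exceeded the Y-linked genes in Pdx1cKO 1 and 2 only, so sex was not balanced between the groups. Pdx1 itself read 48.4, 48.4 and 42.9 in Pdx1cKO, against 67.9 and 112.7 in control (log2 fold change -0.91, standard error 0.255, limma adjusted p = 0.385), a weak check of the labels in tissue whose endocrine cells keep the gene.

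Reg1 and Nupr1 were lower in every Pdx1cKO pancreas than in both controls, by 4.15-fold and 6.92-fold on the group means, and Reg3d and Reg3b had log2 fold changes of similar size with controls that lay far apart. Reg2, Reg3a and Reg3g were lower by less than 1 on the log2 scale, and Reg4 hardly differed. All 8 members had a negative log2 fold change, with a median of -1.12, against 10449 of all 19938 genes and a median of 0.00. In 7 of the 8 every Pdx1cKO array lay below both controls, where 11.7% of all genes did so. At an unadjusted p of 0.05, limma called 2 members lower (Reg1 and Nupr1) and 5.04% of all genes lower. The call of Nupr1 held in all 14 alternatives, but that of Reg1 was lost in 6 of 14, with limma p between 0.0512 (without control 1) and 0.117 (sex as a covariate). After Benjamini-Hochberg adjustment over all genes 0 members and 0% of genes passed. Whole pancreas was measured, and fewer acinar cells, less RNA per cell and a different share of other tissues in the sample cannot be told apart.

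**Figure D2:**
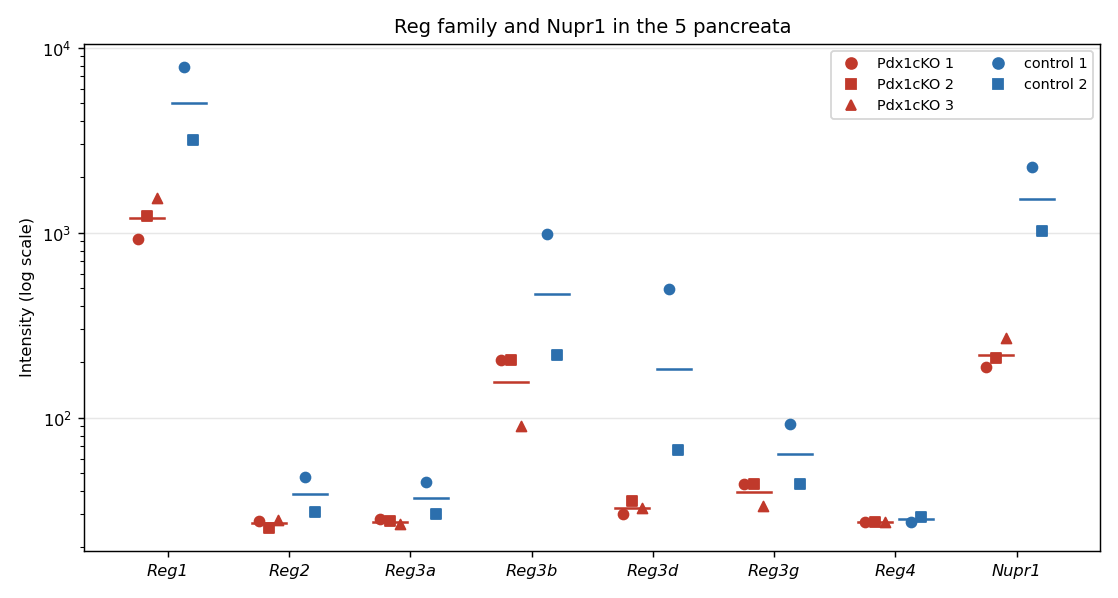
Intensity of each member on a log10 axis in the 3 Pdx1cKO arrays and, to their right, the 2 control arrays, each point being 1 array and each line the geometric mean of a group. Nupr1, Reg1 and Reg3d leave a clear gap between the groups, Reg3g ties at 43.7 across them, and control 1 lies above control 2 in every member except Reg4.

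Reg1, also called lithostathine, an abundant protein of pancreatic juice, was lower in every Pdx1cKO array. Its intensities were 924, 1227 and 1543 in Pdx1cKO 1, 2 and 3, against 7863 and 3178 in control 1 and 2. The brightest Pdx1cKO array stayed 1.04 below the dimmer control on the log2 scale, so the groups did not overlap, although the controls themselves differed by 1.31. The log2 fold change was -2.05 (standard error 0.506, 95% interval -3.51 to -0.60, limma adjusted p = 0.345), a level 4.15-fold lower in Pdx1cKO, and 47 genes on the array had a more negative value. Reg2, a close relative of Reg1, read 27.8, 25.4 and 28.0 in Pdx1cKO, against 47.9 and 31.0 in control. All 3 Pdx1cKO arrays lay below both controls, by a margin of 0.15 on the log2 scale, and 4 of the 5 Reg2 values were under the lower quartile of their array (31.2 to 31.9). Its log2 fold change was -0.51 (standard error 0.218, limma adjusted p = 0.515).

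Reg3d, a gene related to the hamster islet neogenesis protein INGAP, had the most negative log2 fold change of the Reg genes. It read 30.1, 35.3 and 32.5 in Pdx1cKO, against 498 and 67.0 in control. The 3 Pdx1cKO arrays were close together (SD 0.115 on the log2 scale) and the controls 2.90 apart, yet the groups did not overlap, with a gap of 0.92. The log2 fold change was -2.49 (standard error 0.977, 95% interval -5.30 to 0.32, limma adjusted p = 0.515). The Pdx1cKO values lay around the lower quartile of their arrays (31.2 to 31.4), so no fold is given. Reg3b, known as pancreatitis-associated protein, read 205, 205 and 90.3 in Pdx1cKO, against 986 and 218 in control. Control 2 lay only 0.08 above Pdx1cKO 1 and 2 on the log2 scale, and their values were identical. The log2 fold change of -1.57 (standard error 0.866, 95% interval -4.06 to 0.92, limma adjusted p = 0.515) was -0.48 without control 1.

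Reg3g, whose product binds the cell wall of Gram-positive bacteria in the gut, gave 43.7, 43.7 and 33.1 in Pdx1cKO, against 92.2 and 43.7 in control. It was the member whose groups met, since Pdx1cKO 1, Pdx1cKO 2 and control 2 held exactly the same value. The log2 fold change was -0.67 (standard error 0.395, limma adjusted p = 0.515), and it was -0.13 without control 1 and -1.21 without control 2. Reg3a, a further gut and pancreas lectin of the Reg3 group, had 28.3, 27.5 and 26.5 in Pdx1cKO, against 44.6 and 30.3 in control. The groups were separated by 0.10 on the log2 scale, with 4 of the 5 values under the lower quartile. Its log2 fold change was -0.42 (standard error 0.191, limma adjusted p = 0.515).

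Reg4, a member expressed mainly in the gut, read 27.1 in all 3 Pdx1cKO arrays, against 27.2 and 29.2 in control. All 5 values were under the lower quartile of their arrays, and the log2 fold change was -0.05 (standard error 0.0355, limma adjusted p = 0.515). It was counted among the members below both controls on a margin of 0.00 at 2 decimals. No detection calls came with the values, so whether Reg2, Reg3a, Reg3d and Reg4 were above background in Pdx1cKO is unknown, and a dim probe set leaves little room for a lower value.

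Nupr1, also called p8 and known from its induction in injured acinar cells, had the most negative log2 fold change and the smallest p of the 8. Its intensities were 188, 209 and 269 in Pdx1cKO, against 2267 and 1016 in control. The gap between the groups was 1.92 on the log2 scale, larger than the 1.16 between the controls. The log2 fold change was -2.79 (standard error 0.429, 95% interval -4.02 to -1.56, limma adjusted p = 0.236), which is a 6.92-fold lower level, and 24 genes on the array had a more negative value. Geometric means were 219 in Pdx1cKO and 1518 in control, with SDs of 0.265 and 0.818 on the log2 scale (n = 3 and n = 2).

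The spread between the controls set the precision of these estimates. Control 1 was higher than control 2 in 7 of the 8 members, by up to 2.90 on the log2 scale for Reg3d. Without control 1 the log2 fold change was -2.21 for Nupr1, -1.40 for Reg1, -1.04 for Reg3d and -0.48 for Reg3b. Without control 2 it was -3.37 for Nupr1, -2.71 for Reg1, -3.94 for Reg3d and -2.66 for Reg3b. Over the alternatives that kept both controls, the adjusted p of Nupr1 ran over 0.18 to 0.925, both ends from limma. In the same way that of Reg3d ran over 0.479 to 0.925 and that of Reg1 over 0.247 to 0.925. The log2 fold change of Reg2 was -0.83 without control 2 and -0.20 without control 1, and that of Reg3a was -0.70 and -0.14. For Reg4 it was -0.10 without control 1. With 1 control left its spread is assumed to equal that of the Pdx1cKO arrays, which leaves out the difference between the controls. No adjusted p of a member is therefore given for those fits.

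**Figure D3:**
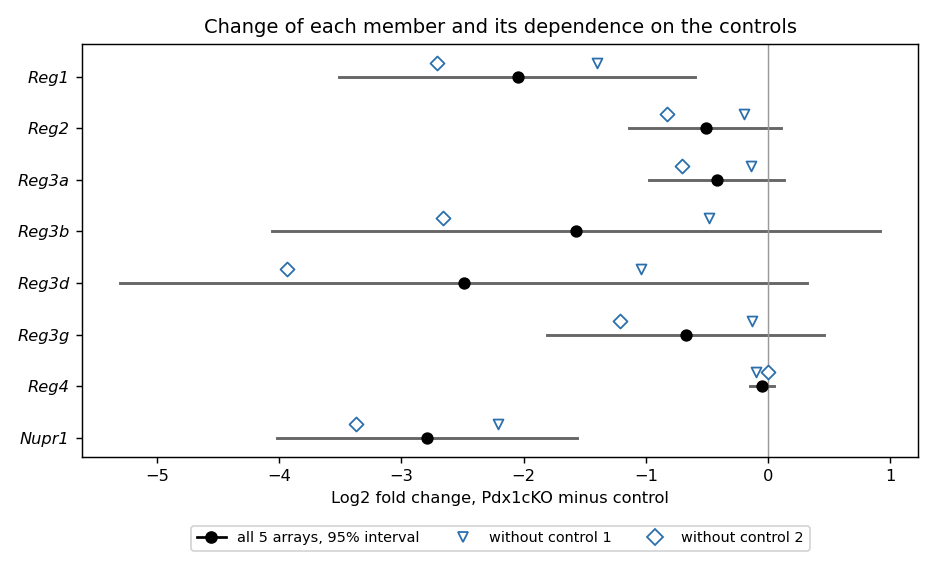
Log2 fold change of each member, Pdx1cKO minus control, with all 5 arrays (black, with the 95% interval from limma) and after leaving out control 1 (triangles) or control 2 (diamonds). The intervals of Nupr1 and Reg1 lie wholly below 0, and for Reg3d the value was -1.04 without control 1 and -3.94 without control 2.

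The members were then set against the digestive enzymes, the main products of the acinar cell, to see whether they differed from the general acinar level. Of 25 listed enzymes 20 were measured, and all 20 were lower in every Pdx1cKO array than in both controls, with a median log2 fold change of -2.15 (Ctrl, a chymotrypsin-like protease, -5.60 to Ctrc, chymotrypsin C, -1.22). None passed after adjustment, and 19 had an unadjusted p under 0.05 in limma, the smallest being those of the trypsinogens Prss3 (-3.50) and Try5 (-2.23), each with a limma adjusted p of 0.183. Relative to its control mean, the median log2 intensity of the 20 enzymes stood at -2.67, -2.34 and -1.98 in Pdx1cKO 1, 2 and 3, against 0.35 and -0.35 in control 1 and 2.

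Relative to that enzyme median, Nupr1 was lower in all 3 Pdx1cKO arrays, at -0.34, -0.52 and -0.52, than in the controls, at 0.23 and -0.23. The offset of -0.46 had an exact two-sided permutation p of 0.1, the smallest that 3 arrays against 2 can give, so the design cannot reach 0.05. It was -0.21 when the mean of the enzymes replaced their median. Of the 20 enzymes 6 had a more negative log2 fold change than Nupr1, which thus lay inside their range, and 11 had a more negative one than Reg1. Reg1 lay at 0.23, 0.31 and 0.28 in Pdx1cKO, against 0.30 and -0.30 in control, and its offset of 0.28 was within the range of the controls (exact permutation p = 0.3). The offset of Reg3d, dim in Pdx1cKO, was -0.16 (exact permutation p = 1), and it was 0.94 without control 1 and -1.26 without control 2. That of Reg3b was 0.76 (exact permutation p = 0.5), and it was 1.5 without control 1 and 0.02 without control 2. In both the arrays of the groups overlapped. Reg3g, Reg2, Reg3a and Reg4 had offsets of 1.66 to 2.27 with all Pdx1cKO arrays above the controls (exact permutation p = 0.1 each). Reg2, Reg3a and Reg4 are dim, with little room for a lower value, so the lower enzyme median alone makes their offsets positive. The same limit holds for Reg3g, with a geometric mean of 63.5 in control. A fall as large as that of the enzyme median would take it below the lowest intensity of each Pdx1cKO array. The p values of Reg3g, Reg2, Reg3a and Reg4 therefore cannot tell whether these members differed from the enzymes. Over the 8 offsets 0 could pass an adjusted threshold.

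**Figure D4:**
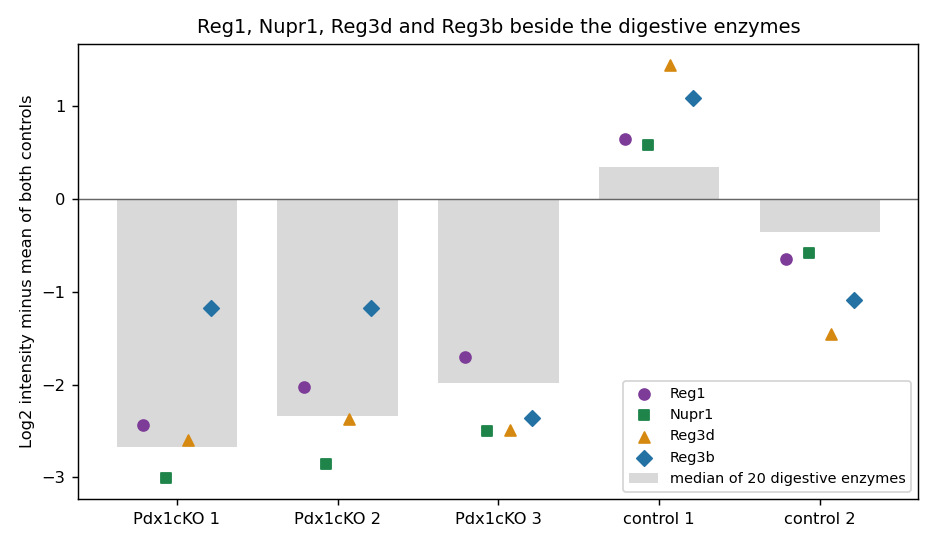
Log2 intensity minus the mean of both controls (y axis) in each array (x axis), for Reg1, Nupr1, Reg3d and Reg3b (points) and for the median of 20 digestive enzymes (grey bars, which start at 0). Nupr1 lies beyond the end of the bar in all 3 Pdx1cKO arrays, and Reg1 lies within 0.31 of the bar throughout.

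Across the 5 arrays the genes nearest to a member were sought by the root mean square difference of their centred log2 profiles. Those nearest to Reg1 were Rnase1, the pancreatic ribonuclease (0.216), Cela3a, a pancreatic elastase (0.227), and Klk1b5, a kallikrein (0.237). Prss2, a trypsinogen, lay nearest to Nupr1 (0.152), followed by 2210010C04Rik (0.236) and Tmed6 (0.238). Beside Reg3d stood Derl3, a protein of endoplasmic reticulum-associated degradation (0.241), the phospholipase Pla2g1b (0.349) and Erp27 (0.409), and like Reg3d these had control 1 far above control 2. For Reg3b the nearest were Pdk4 (0.417), Bhlha15, an acinar transcription factor also known as Mist1 (0.440), and Edem2 (0.458). Pex11a (0.0712), Mknk1 (0.104) and Syne4 (0.116) were nearest to Reg3g, Erich5 (0.0276), Trappc9 (0.0372) and Tle6 (0.0520) to Reg2, and Gadd45b (0.0376), Scand1 (0.0442) and Cln3 (0.0450) to Reg3a. For Reg4 they were Ttc41, 4933417A18Rik and Rab21 (0.00104 to 0.00113), each with 1 identical value in the Pdx1cKO arrays and control 1, almost as in Reg4. Among the members themselves Reg2 and Reg3a were closest (0.0784), and Reg1 and Nupr1 differed by 0.375. The 5 arrays form only 2 groups, and no test was made of this likeness.

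Acinar products other than the enzymes were mostly lower too, by widely different amounts. Of 20 listed, of which Clps is also in the enzyme list, 19 were measured, 18 were below both controls in every Pdx1cKO array, and the median log2 fold change was -2.48. They ran between -5.06 for Sycn, a zymogen granule protein, and -0.54 for Ptf1a, the DNA-binding subunit of the PTF1 complex. The smallest p values were those of Tff2, a trefoil peptide (-4.46, limma adjusted p = 0.147), and Dmbt1, a secreted scavenger receptor protein (-4.20, limma adjusted p = 0.161). By unadjusted p 16 were lower, against 5.04% of all genes, and 0 passed after adjustment.

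The listed genes of the STAT3 pathway, which is known to act upstream of Reg3 genes, had no common direction in RNA level. The activity of STAT3 was not measured, and its part in the Reg values was not tested. Of 20 listed genes 18 were measured, with a median log2 fold change of -0.02, 2 lower and 2 higher by unadjusted p and 0 after adjustment. The smallest p values belonged to the 2 chains of the IL-22 receptor. Il22ra1, 1 of these chains, read 82.2, 84.6 and 87.3 in Pdx1cKO, against 297.3 and 145.0 in control (log2 fold change -1.29, limma adjusted p = 0.372). The Pdx1cKO arrays were close together and below both controls. Il10rb, the other chain, read 199.7, 214.3 and 210.2 in Pdx1cKO, against 266.0 and 239.3 in control (log2 fold change -0.28, limma adjusted p = 0.317). The 2 higher genes were Pim1, a kinase induced by STAT3 and the most positive of the list, and the kinase Jak1, named after its values were seen. Pim1 read 230.1, 347.4 and 270.2 in Pdx1cKO, against 175.9 and 177.3 in control (0.66, limma adjusted p = 0.426). Jak1 read 641.7, 703.7 and 712.8 in Pdx1cKO, against 601.5 and 509.7 in control (0.31, limma adjusted p = 0.441), and in neither did the groups overlap. Stat3 itself (-0.07, limma adjusted p = 0.522) and Extl3, proposed as a receptor for Reg proteins (-0.19, limma adjusted p = 0.712), are named here after their values were seen, and in both the groups overlapped or tied.

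The RNA of the integrated stress response list, the pathway of ATF4 upstream of Nupr1, had a median log2 fold change of 0.01 over 20 genes, all measured. The activity of ATF4 was not measured, and its part in the Nupr1 level was not tested. By unadjusted p 2 were lower and 1 was higher, and 0 passed after adjustment. Atf4 itself, among the lower genes, is named after its values were seen. It read 118.4, 112.7 and 119.3 in Pdx1cKO, against 125.5 and 140.8 in control (log2 fold change -0.19, limma adjusted p = 0.478). Eif2ak3, the kinase PERK that senses stress in the endoplasmic reticulum, read 164.6, 147.2 and 167.4 in Pdx1cKO, against 237.7 and 209.8 in control (log2 fold change -0.49, limma adjusted p = 0.272). Ppp1r15a, the phosphatase subunit GADD34 that reverses the response, read 84.2, 99.1 and 84.2 in Pdx1cKO, against 71.6 and 68.5 in control (0.34, limma adjusted p = 0.377). In each the groups did not overlap. The list ran between -0.71 for Asns, asparagine synthetase, and 0.60 for Atf3, a stress-induced transcription factor.

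Several Reg genes are also expressed in the gut, so intestinal and stomach markers were read in the same arrays. The 15 intestinal markers, all measured, summed to 1975, 2101 and 2209 in Pdx1cKO, against 2933 and 6862 in control 1 and 2. In control 1, Anpep alone gave 1910 of the 2933. The median intensity of the 15 was 47.0, 43.7 and 75.4 in Pdx1cKO, against 49.1 and 174.9 in control, so by this median only control 2 stood apart. This did not hold for every marker. Over the list the median of control 1 minus control 2 was -1.74 on the log2 scale. Single markers varied, and those named here were picked after their values were seen. Sucrase-isomaltase (Sis) read 20.5 to 21.2 in all arrays, near the lowest intensities on the arrays (at most 18.3 for the lowest). Cdx2, a transcription factor of the intestinal epithelium, was 36.6 in each. Alpi (40.4 in control 1, 1132 in control 2) and Apoa4 (208.2 and 2641) were far higher in control 2. Dpp4 and Anpep were lower there than in control 1. Fabp1, Fabp2, Rbp2 and Mttp were higher in all 3 Pdx1cKO arrays than in control 1, and Vil1, Dpp4 and Anpep were lower. Rbp2 read 335.9, 234.8 and 171.6 in Pdx1cKO, against 45.4 and 501.9 in control 1 and 2. Fabp1 read 127.9, 306.3 and 106.2, against 49.1 and 163.9, and Mttp read 125.7, 207.6 and 121.2, against 53.8 and 407.2. Control 2, with the higher gut and stomach sums, had the lower value in all members but Reg4, and the part of these transcripts in the Reg values was not tested.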

How the data were processed

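RNA of whole pancreas was read on 5 arrays, grouped by their labelled genotype. The authors processed the scans in GeneSpring GX 12.1 and deposited linear intensities of 28853 probe sets. How background was corrected, arrays normalised and probes summarised was not given in the sources used here. Exact ties between arrays occur in 67.7% of probe sets, and 16.3% hold 1 identical value in all Pdx1cKO arrays. Precision is limited by the number of arrays.

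Log2 of these values was used without a pseudocount or rescaling. Probe sets with 1 gene symbol in the platform annotation (21789, of which 21698 matched the RefSeq table by Entrez gene; 1621 had several symbols and 5443 none) were averaged into 19938 genes. Groups were compared with limma 3.58.1 in R 4.3.3 (lmFit, eBayes) with Benjamini-Hochberg adjustment over all genes at 0.05, in a step tested on simulated data. Offsets from the enzymes were tested by exact permutation in scipy 1.17.1, and files were read with Python 3.11.15, pandas 2.3.3 and numpy 2.4.6. Figures were drawn with matplotlib 3.10.9.

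The members and gene lists were chosen with earlier results of these data known. Named genes are the members, the 3 nearest profiles of each, the 2 smallest p values of each pathway or acinar list, its extremes where a range is given, and Pdx1. Others are said to be named after their values were seen, and marker lists are given as sums, with medians as well for the intestinal and islet hormone lists. Promoters come from the RefSeq table of GRCm38.p6, and no build is named with the intensities. Alternatives were median scaling, quantile normalization, a filter at the median level, the brightest probe set per gene, other eBayes settings, array weights, the methods' t-test, the replicate number as a block, sex as a covariate, the mean of the enzymes, and leaving out each array. Whether the replicate numbers pair the samples cannot be told. The correlations of deviations from the group means were 0.03 and 0.00, but with 2 controls the deviations of control 1 and control 2 mirror each other.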

Additional observations from a re-analysis of the deposited data

How the results depend on the processing

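All 8 members kept a negative log2 fold change under every alternative run, and no member reached an adjusted p of 0.05 in any alternative that kept both controls. No gene passed over all genes under limma, apart from some of the fits that left out an array, whereas the methods' t-test gave 7 genes lower and 3 higher after adjustment. Leaving out 1 array gave 0 to 2072 genes lower (1783 without control 1, 2072 without control 2) and 0 to 1604 higher after adjustment. By unadjusted p, 1005 genes were lower, and 501 above the median level, 391 with array weights and 638 to 3694 with 1 array left out. Likewise 1054 were higher, and 241 with array weights and 711 to 2958 with 1 array left out.

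The replicate number as a block (replicate block) gave 605 genes lower by unadjusted p and changed no adjusted call of a member (Nupr1 -2.94, Reg1 -2.23), while the unadjusted p of Reg1 under it was 0.1 in limma. Genes below both controls numbered 2329, 49.3% of those that did not overlap. Median scaling gave 3794 (63.2%, with 8 members), quantile normalization 3810 (49.8%, with 7 members), the filter at the median level 1024, and leaving out 1 array 2636 to 6631. Genes above both numbered 3841 under quantile normalization and 2786 to 6206 with 1 array left out.

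The members' median was -2.05 over the 3 members above the median level, and -1.93 to -0.34 with 1 array left out. In those fits the log2 fold change ran over -0.83 to -0.20 for Reg2, -0.70 to -0.14 for Reg3a, -3.94 to -1.04 for Reg3d, -1.21 to -0.13 for Reg3g, -2.66 to -0.48 for Reg3b, -0.10 to 0.00 for Reg4 and -3.37 to -2.21 for Nupr1. With sex as a covariate the values were -2.50 for Nupr1, -1.70 for Reg1 and -2.36 for Reg3b, none past the threshold. Offsets from the enzymes ran over -0.03 to 0.58 for Reg1, 0.02 to 1.5 for Reg3b, -1.26 to 0.94 for Reg3d and -0.69 to -0.23 for Nupr1 with 1 array left out, and were 0.53 for Reg1 and -0.21 for Nupr1 against the enzyme mean. The causes were not tested. With 2 controls and no detection calls, differences of the dim members Reg2, Reg3a, Reg3d and Reg4 are poorly bounded.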

Other observations

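Genes known to rise in injured acinar cells had no common direction beside the members. Of 20 listed, 18 were measured, with a median log2 fold change of 0.18, 1 lower and 2 higher by unadjusted p in limma and 0 after adjustment. Sox9, a transcription factor of duct and progenitor cells, read 171.9, 137.6 and 157.3 in Pdx1cKO, against 262.0 and 229.0 in control (log2 fold change -0.66, limma adjusted p = 0.279). Anxa1, an annexin, read 274.7, 304.3 and 290.7 in Pdx1cKO, against 243.7 and 243.5 in control (0.25, limma adjusted p = 0.291). The list ran between -0.96 for S100a6, a calcium-binding protein, and 2.51 for Lcn2, an iron-binding protein (limma adjusted p = 0.298). S100a6 read 362.7, 340.3 and 388.5 in Pdx1cKO, against 424.9 in control 1 and 1173 in control 2, the array with the high stomach sum. Its value thus rests largely on control 2. Lcn2 is also made by granulocytes, whose 11 listed genes summed to 4098, 4972 and 1988 in Pdx1cKO, against 707 and 624 in control. The part of granulocytes in its level was not tested.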
